A study of Mus musculus with 6 samples.

Results

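The transcription factors that set up and maintain trophectoderm were examined in mouse embryonic stem (ES) cells with and without Satb1. Trophectoderm is the outer layer of the blastocyst and the source of the placenta. The 9 genes were Tead4, Cdx2, Gata3, Eomes, Elf5, Tfap2c, Tfap2a, Hand1 and Esx1, out of 19938 genes tested. They were taken by name, from probe sets that the platform annotation gives exactly 1 gene symbol, and each had 1 such probe set. RNA came from 3 wild-type arrays (replicates 1, 2 and 3) and 3 Satb1-/- arrays (replicates 1-1, 1-2 and 2-1, which the labels call clones). The labels do not say what the first number of a clone stands for. All cells, controls included, carried a HygroTK selection marker in the Oct4 locus. They were cultured with serum and LIF on irradiated feeder cells for 3 days under hygromycin, and feeders were reduced by letting them settle. Bulk RNA cannot tell a change in the number of expressing cells from a change of RNA per cell. Separate cultures are not stated in the labels, and the spread behind every p-value is therefore that of these arrays, in part perhaps technical.

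In the embryo, outer cells hold the Hippo kinase pathway inactive, so that the coactivators YAP1 and WWTR1 enter the nucleus and bind TEAD4. TEAD4 then turns on Cdx2, and Gata3 in parallel. CDX2 and OCT4 (the product of Pou5f1) repress each other, which separates trophectoderm from the inner cell mass that ES cells derive from. Eomes, Elf5 and Tfap2c join Cdx2 in the self-renewing network of trophoblast stem cells. Hand1 and Esx1 act later, in giant cells and in the labyrinth of the placenta. In ES cells most of this network is silent.

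The sequences just upstream of the factors show which known binding letters lie next to their starts. The RefSeq promoter table (GRCm38.p6) held windows for 6 of the 9 genes: Gata3, Elf5, Cdx2, Eomes, Tfap2a and Esx1. Tead4, Tfap2c and Hand1 had none. The 250 bases before the start are printed 5′ to 3′ on the gene's strand for Cdx2 (chr5:147307250-147307499, minus strand), the factor that defines the lineage. They are printed also for Eomes (chr9:118477939-118478188, plus strand), which had the largest difference, and for Gata3 (chr2:9878601-9878850, minus strand), which varied most between arrays. Capitals mark matches, on either strand, to any of 4 motifs: TEAD (GGAATG), AP-2 (GCCNNNGGC), T-box (GGTGTG) and the octamer bound by OCT4 (ATGCAAAT).
Cdx2: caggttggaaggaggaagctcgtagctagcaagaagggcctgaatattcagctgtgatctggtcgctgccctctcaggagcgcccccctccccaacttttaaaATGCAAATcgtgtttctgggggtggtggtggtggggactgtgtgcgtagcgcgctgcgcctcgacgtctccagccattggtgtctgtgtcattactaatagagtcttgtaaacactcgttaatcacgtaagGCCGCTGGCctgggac
Eomes: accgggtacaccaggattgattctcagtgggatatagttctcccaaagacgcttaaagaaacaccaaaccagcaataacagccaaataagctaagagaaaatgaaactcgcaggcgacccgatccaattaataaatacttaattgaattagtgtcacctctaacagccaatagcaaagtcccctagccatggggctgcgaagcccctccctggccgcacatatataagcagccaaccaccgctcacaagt
Gata3: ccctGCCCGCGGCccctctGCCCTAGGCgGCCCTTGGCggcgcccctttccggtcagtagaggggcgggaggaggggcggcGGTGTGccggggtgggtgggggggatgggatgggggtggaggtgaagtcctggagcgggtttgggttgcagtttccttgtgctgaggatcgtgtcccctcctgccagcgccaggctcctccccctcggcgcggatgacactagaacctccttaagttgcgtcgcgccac
The Cdx2 window held 1 octamer and 1 AP-2 match. The Gata3 window held 3 AP-2 matches and 1 T-box match, and the Eomes window held no match to any of the 4. In all 32851 windows of this length, 1.60% held the octamer, 13.7% the AP-2 letters, 16.3% the T-box letters and 12.6% the TEAD letters. The matches in these windows did not overlap each other. CpG dinucleotides numbered 13 in the Cdx2 window, 8 in that of Eomes and 19 in that of Gata3, against a median of 6 over all windows. Of the 2 windows of Elf5, a gene that DNA methylation keeps silent in ES cells, 1 held 2 and the other 8. The Elf5 window with 2 CpG held 1 TEAD match, and that with 8 held 1 T-box match. Esx1 had 1 T-box match in its window, and those of Tfap2a held no match to the 4 motifs. A match is a description of letters and shows no binding.

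All 14 listed ES cell markers were brighter than the median gene, which read 5.05. Of these markers 4 rose and 0 fell (median 0.14), where 0.923% of all genes rose and 0.476% fell. The 4 were Nanog, Esrrb, Klf4 (0.97) and Tfcp2l1 (0.88), the latter pair with limma adjusted p-values of 0.048 and 0.018. The list went both ways: 8 of the 14 had a higher mean in knockout. In 5 of them every knockout array lay above every wild-type array, and in 4 below. Among all genes these patterns were shown by 8.18% and 6.97%. Klf4 lost its call when any array other than wild-type replicate 3 was left out, and Tfcp2l1 on leaving out knockout replicate 1-2, knockout replicate 2-1 or wild-type replicate 1. Of the trophectoderm factors, 3 were brighter than the median gene (Tfap2c, Tead4 and Hand1) and 6 were not. Brightness also depends on the probes, so it gives no order of expression among genes. RMA compresses differences of dim probe sets, so a log2 difference can understate the change of those 6. The knocked-out gene, Satb1, differed by -0.67 between the groups (SE 0.12, limma adjusted p = 0.022). That call was lost without wild-type replicate 1 or any knockout array, and the difference was -0.11 with values under the median gene set to its level. Wild-type replicate 3 stood apart: on the second principal component (29.4% of the variance) it scored -29.3, and the other 5 arrays scored between 0.51 and 13.1. On the first component (36.2%) wild-type replicate 1 was the most extreme, at -26.7. Wild-type replicates 2 and 3 scored -10.6 and -3.69 there, and the knockout arrays 12.7 to 15.5. The weights that limma gave arrays by their noise were 0.46, 1.71 and 0.45 for wild-type replicates 1, 2 and 3. They were 1.08 to 1.99 for the knockout arrays. Several results are given with and without wild-type replicate 3.

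None of the 9 factors passed the test in these cells, which were all under hygromycin with the selection marker in the Oct4 locus. Cells without this selection were not measured. By limma with Benjamini-Hochberg adjustment over all genes, 0 of 9 were called at an adjusted p under 0.05, where 1.4% of all genes were. Among all genes 0.923% were called higher and 0.476% lower. At an unadjusted p under 0.05 there were 3 of 9 (Eomes, Tead4 and Tfap2c), against 10.5% of all genes. In these 3 every knockout array read above every wild-type array, a pattern that 8.18% of all genes showed in this direction, 6.97% in the other and 15.1% in either. In the other 6 the groups overlapped. Over the 9 genes 5 had a higher and 4 a lower mean in knockout, and the median difference was 0.07, against -0.00 for all genes. A limma adjusted p over the threshold does not show that a factor was the same in both groups, so intervals are given below. With array weights, and after a second quantile normalization, Eomes did pass (limma adjusted p = 0.035 and 0.044), as did 1.87% and 1.21% of all genes in this direction.

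**Figure D1:**
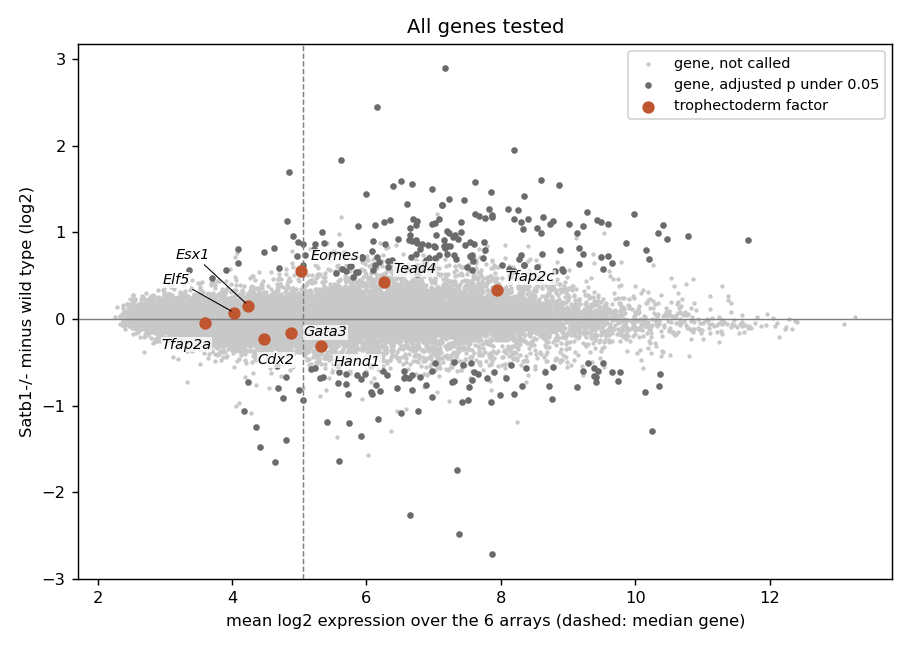
Difference between Satb1-/- and wild type (log2, vertical axis) against mean log2 expression over the 6 arrays (horizontal axis) for every gene tested. Each grey point is a gene, darker where its limma adjusted p is under 0.05, and the 9 trophectoderm factors are named; all 9 lie between -0.31 and 0.55.

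Tead4, which receives the Hippo signal and starts the trophectoderm programme, read 6.03, 6.11 and 6.02 in wild-type replicates 1, 2 and 3. It read 6.34, 6.62 and 6.49 in knockout replicates 1-1, 1-2 and 2-1. The groups did not overlap, and replicate 1-2 was the highest. The difference was 0.43 log2 units, a fold of 1.34 (95% interval of the log2 difference 0.18 to 0.67, limma adjusted p = 0.111). Leaving out any 1 array gave 0.36 to 0.50.

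Tead4 lies on chromosome 6, among genes that were raised together in the knockout. Of the 30 nearest genes brighter than the median gene, 15 on each side, 26 had a higher mean in knockout. Of the 30, 17 rose and 1 fell (Prp2, -0.87), where 0.923% of all genes rose and 0.476% fell. With only the 9969 genes brighter than the median gene tested, 214 were higher and 112 lower. Prp2 lost its call on leaving out any knockout array or wild-type replicate 1. The median difference of these neighbours was 0.83, and 22 of them had a larger difference than Tead4. Against the median of its neighbourhood Tead4 stood at -0.41. The next gene on one side, Tspan9, differed by 0.85, and the next on the other, Tulp3, by 1.12. Tspan9 lost its call on leaving out any knockout array, and Tulp3 kept it on leaving out each of the 6 arrays. Whether the raised neighbourhood and the difference of Tead4 have a common source was not tested.

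**Figure D2:**
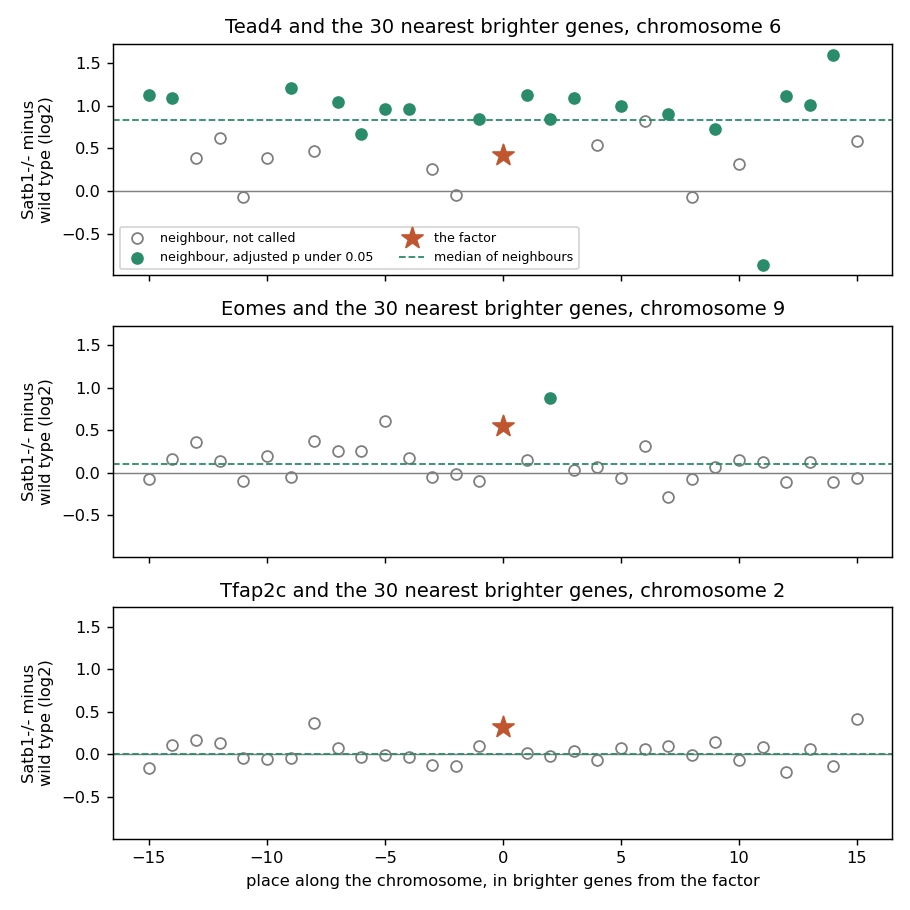
Difference between Satb1-/- and wild type (log2) for Tead4, Eomes and Tfap2c (stars) and the 30 nearest brighter genes of each (circles, filled where the limma adjusted p is under 0.05), in order along the chromosome. The dashed line is the median of the neighbours, at 0.83 for Tead4, 0.10 for Eomes and 0.01 for Tfap2c.

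The other TEAD genes, which share the DNA-binding domain of Tead4, did not pass the test. Tead1 differed by -0.00 (95% interval -0.26 to 0.26), Tead2 by -0.10 (-0.37 to 0.17) and Tead3 by -0.16 (-0.46 to 0.15). Their limma adjusted p-values were 1.00, 0.894 and 0.824. The coactivator Yap1 differed by 0.06 (-0.20 to 0.31, limma adjusted p = 0.945).

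Of 20 measured genes of the Hippo pathway 1 fell and 0 rose, where 0.476% of all genes fell and 0.923% rose. The median difference of the list was 0.04. The gene that fell was Wwc2, which encodes a scaffold protein related to KIBRA. It read 7.60, 7.67 and 7.85 in wild type and 7.15, 7.19 and 7.18 in knockout, which gave -0.53 (SE 0.11) and a limma adjusted p of 0.041. Its call was lost without wild-type replicate 2 or 3 or any knockout array (-0.59 to -0.46).

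Cdx2, the homeobox factor whose expression commits cells to trophectoderm, was dim in both groups. It read 4.54, 4.42 and 4.84 in wild type and 4.33, 4.48 and 4.29 in knockout. The groups overlapped, since knockout replicate 1-2 lay above wild-type replicate 2, and wild-type replicate 3 was the highest. The difference was -0.23 (95% interval -0.52 to 0.05, limma adjusted p = 0.622), and -0.11 without wild-type replicate 3. Its relatives Cdx1 and Cdx4 were not called.

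Gata3, a zinc finger factor that acts beside Cdx2, had the widest spread of the 9. It read 4.53, 4.82 and 5.53 in wild type and 5.09, 4.73 and 4.58 in knockout. Wild-type replicate 3 was again the highest, all knockout values lay within the wild-type range, and the SD was 0.51 in wild type and 0.26 in knockout. The difference was -0.16 (95% interval -0.66 to 0.35, limma adjusted p = 0.914). Without wild-type replicate 3 it turned to 0.12.

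Its relative Gata2, which also works in trophoblast and in blood progenitors, did pass the test. Gata2 read 5.73, 5.47 and 5.86 in wild type and 4.90, 5.17 and 4.99 in knockout. It fell by 0.67 (SE 0.13, limma adjusted p = 0.035), a value that was -0.58 and still called without wild-type replicate 3. The call was lost without wild-type replicate 1 or any knockout array (leaving out any 1 array gave -0.78 to -0.58). The difference between the changes of Gata2 and Gata3 was not tested.

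Eomes, a T-box factor needed for trophoblast stem cells and later for mesendoderm, had the largest difference of the 9. It read 4.73, 4.74 and 4.79 in wild type and 5.12, 5.55 and 5.24 in knockout. The wild-type values lay within 0.07 of each other, and every knockout value lay above them, with replicate 1-2 highest. The means were 4.75 ± 0.03 and 5.30 ± 0.22 (SD, n = 3 each). The difference was 0.55 log2 units, a fold of 1.46 (95% interval of the log2 difference 0.27 to 0.83, limma adjusted p = 0.068). Its size exceeded that of 97.7% of all genes. Leaving out any 1 array gave 0.43 to 0.64 with limma adjusted p-values of 0.06 to 0.27, and 0.57 without wild-type replicate 3. All wild-type values lay below the median gene, and with values under that level set to it the difference was 0.26. Its neighbours on chromosome 9 had a median of 0.10. Against 1.4% of all genes, 1 of the 30 was called (Itga9, 0.88). That call was lost without knockout replicate 1-1 or 1-2.

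**Figure D3:**
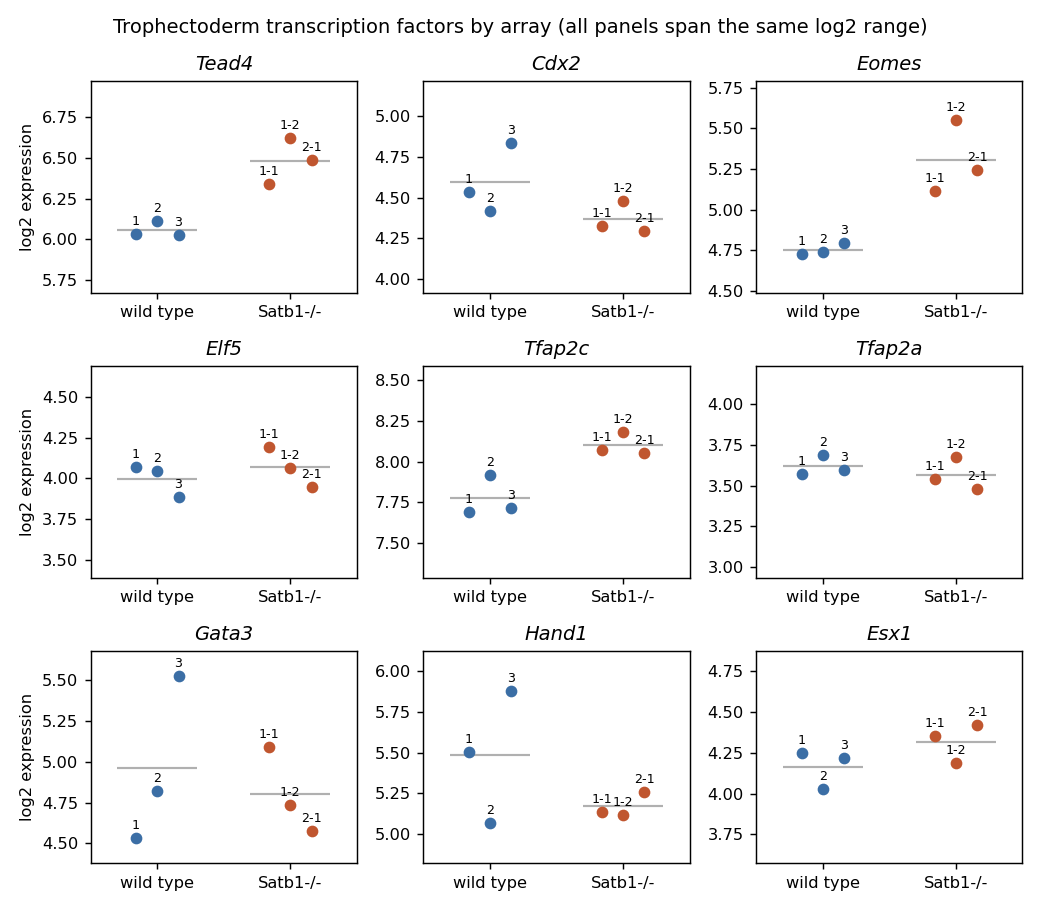
Log2 expression of the 9 factors in each of the 3 wild-type arrays (blue) and 3 Satb1-/- arrays (orange), with replicate names beside the points and group means as grey lines. Every panel spans the same log2 range; the groups are separate for Tead4, Eomes and Tfap2c, and wild-type replicate 3 is the highest array for Cdx2, Gata3 and Hand1.

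Markers of mesendoderm, where Eomes is also active, were given beside it. Of 14 measured, 0 passed the test in either direction (1.4% of all genes did), 6 had a higher mean in knockout and the median was -0.07. Their summed linear signal ranged from 411 to 475 in wild type and from 440 to 485 in knockout. The listed markers with the largest differences were Pdgfra, a growth factor receptor of mesoderm and primitive endoderm (0.53, limma adjusted p = 0.241), and Mesp2 (-0.22, limma adjusted p = 0.599). The marker T had no probe set with 1 symbol.

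The T-box gene Tbx3, which acts in naive pluripotency and in extraembryonic endoderm, was the 1 listed relative of the factors that rose. It read 5.27, 5.76 and 6.12 in wild type and 7.22, 7.48 and 7.23 in knockout, which gave 1.59 (SE 0.19) and a limma adjusted p of 0.002. Tbr1 and Tbx21, the closest relatives of Eomes, were not called. Of 26 measured relatives of the 9 factors, 1 rose and 1 fell (Tbx3 and Gata2), against 0.923% and 0.476% of all genes. The median of the relatives was -0.10.

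Elf5, an ETS factor that locks in trophoblast fate, gave no difference beyond the spread. It read 4.07, 4.04 and 3.88 in wild type and 4.19, 4.06 and 3.95 in knockout, so that the groups overlapped. The difference was 0.07 (95% interval -0.18 to 0.32, limma adjusted p = 0.927). Elf3, an epithelial ETS relative named after its value was seen, read 6.07, 6.56 and 6.61 in wild type and 6.76, 7.03 and 6.98 in knockout (0.51, limma adjusted p = 0.181).

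Tfap2c encodes AP-2 gamma, which works in trophoblast and in germ cells and is also made in ES cells. It read 7.69, 7.92 and 7.71 in wild type and 8.07, 8.18 and 8.06 in knockout. All knockout values lay above all wild-type values, with the smallest gap between knockout replicate 2-1 and wild-type replicate 2. The difference was 0.33, a fold of 1.26 (95% interval of the log2 difference 0.09 to 0.57, limma adjusted p = 0.246). Leaving out any 1 array gave 0.29 to 0.40. Its neighbours on chromosome 2 had a median of 0.01, and 2 of 30 had a larger difference.

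Tfap2a encodes AP-2 alpha, used in trophoblast, surface ectoderm and neural crest. It read 3.57, 3.69 and 3.60 in wild type and 3.54, 3.68 and 3.48 in knockout. The groups overlapped, and the difference was -0.05 (95% interval -0.29 to 0.18, limma adjusted p = 0.946). Tfap2b differed by -0.10 (95% interval -0.33 to 0.13). Of 15 markers of surface ectoderm and neural crest 0 were called (1.4% of all genes were), with a median of -0.11. The largest differences among them were those of Grhl3 (0.60, limma adjusted p = 0.19) and Msx1 (-0.30, limma adjusted p = 0.376).

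Hand1, a helix-loop-helix factor of giant cells and of mesoderm, was uneven within wild type. It read 5.51, 5.07 and 5.88 there and 5.13, 5.12 and 5.26 in knockout. Wild-type replicates 1 and 3 lay above all knockout arrays and replicate 2 lay below them. The SD was 0.41 in wild type and 0.08 in knockout. The difference was -0.31 (95% interval -0.71 to 0.08, limma adjusted p = 0.628), -0.12 without wild-type replicate 3 and -0.52 without wild-type replicate 2 (limma adjusted p = 0.133). Its relative Hand2 was not called.

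Esx1, an X-linked homeobox gene of the labyrinth, read 4.25, 4.03 and 4.22 in wild type and 4.35, 4.19 and 4.42 in knockout. The groups overlapped at knockout replicate 1-2. The difference was 0.15 (95% interval -0.10 to 0.41, limma adjusted p = 0.756).

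**Figure D4:**
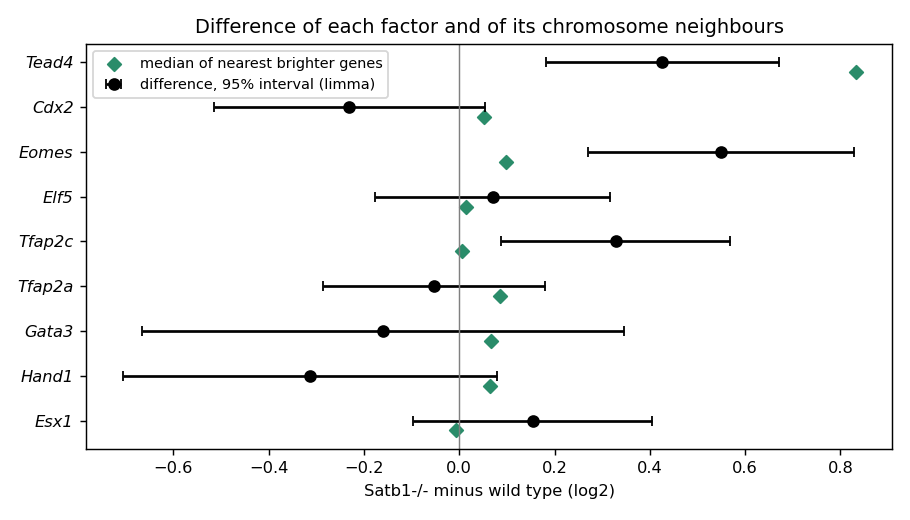
Difference between Satb1-/- and wild type (log2) for each factor with its 95% interval from limma (black), and the median difference of its 30 nearest brighter genes on the chromosome (29 for Cdx2; green diamonds). The interval lies above 0 for Tead4, Eomes and Tfap2c before adjustment for the number of genes, and the neighbours of Tead4 stand at 0.83.

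The arrays in which the factors were high were compared with those of epithelial and placental genes. Cdx2, Gata3 and Hand1 were highest in wild-type replicate 3, as were 20.8% of all genes. So were 9 of 28 epithelial and 11 of 35 placental genes, but also 11 of 25 listed repressors of trophectoderm fate and 6 of 14 ES cell markers. Among the epithelial genes were Krt8, Krt18 and Krt19, keratins of the trophectoderm, at 10.09, 9.66 and 8.67. Ascl2, which keeps spongiotrophoblast precursors, read 4.51, 4.18 and 5.10 in wild type and 3.96, 4.14 and 4.27 in knockout (-0.48, limma adjusted p = 0.425, and -0.23 without wild-type replicate 3). Plac1, a placental gene named after its value was seen, read 4.14, 4.48 and 5.85 in wild type and 3.78, 3.68 and 3.77 in knockout (-1.08, limma adjusted p = 0.21, and -0.57 with an adjusted p of 0.043 on leaving out wild-type replicate 3). For both, wild-type replicate 3 was the highest array. That array was the lowest for 3 of the 35 placental genes, Plac8 (3.51) among them, and for 3 of the 28 epithelial genes. It was also the lowest for 2 of the 9 factors (Elf5 and Tead4), 4 of the 25 repressors and 1 of the 14 ES cell markers. Of all 19938 genes, 4228 were lowest there.

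Epithelial genes of trophectoderm moved in both directions. Of 28 measured, 3 fell and 2 rose, where 0.476% of all genes fell and 0.923% rose. The list median was -0.08. The genes that fell were 3 keratins, with differences of -2.72 (Krt8), -2.48 (Krt18) and -1.74 (Krt19) and limma adjusted p-values of 0.002, 0.005 and 0.003. In these 3 every knockout array lay below every wild-type array, and the calls held on leaving out each of the 6 arrays. Without wild-type replicate 3, their highest array, the differences were -2.29, -1.97 and -1.51. A further listed keratin, Krt7, named after its value was seen, did not pass (-1.57, limma adjusted p = 0.072, and -1.03 without wild-type replicate 3). The genes that rose were the glucose transporter Slc2a3 (0.91, limma adjusted p = 0.008), which like Tead4 lies on chromosome 6, and the water and glycerol channel Aqp3 (0.74, limma adjusted p = 0.015). Both lost their calls without knockout replicate 1-2 or 2-1, and Aqp3 also without wild-type replicate 1 (0.63 to 0.82 leaving out any 1 array).

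Genes of trophoblast stem cells and placenta went both ways. Of 35 measured, 3 rose and 1 fell, where 0.923% of all genes rose and 0.476% fell. The list median was 0.01. Bmp4, which encodes a growth factor, rose by 1.14 (SE 0.12, limma adjusted p = 0.001). Esrrb, a nuclear receptor shared by ES and trophoblast stem cells, rose by 0.56, and Sox21 by 0.54 (limma adjusted p = 0.044 and 0.036). Peg10, an imprinted gene that the placenta needs, fell by 1.30 (limma adjusted p = 0.007), to 9.51, 9.71 and 9.59 from 10.56, 10.74 and 11.40. Fgfr2, the receptor for the FGF4 that trophoblast stem cells depend on, differed by 0.08 (95% interval -0.18 to 0.34). Esrrb lost its call without wild-type replicate 1 or any knockout array, and Sox21 without wild-type replicate 2 or any knockout array. Peg10 lost its call without knockout replicate 1-1 or 2-1, and differed by -1.05 without wild-type replicate 3.

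Among 25 measured genes listed as repressors of trophectoderm fate in ES cells, 2 rose and 1 fell. The shares over all genes were 0.923% and 0.476%, and the list median was 0.09. Pou5f1, the direct opponent of Cdx2, read 10.13, 10.00 and 10.53 in wild type and 9.82, 9.78 and 9.90 in knockout. Its groups did not overlap, but the difference of -0.39 did not pass (limma adjusted p = 0.309), and it was -0.23 without wild-type replicate 3. Pou5f1 is the Oct4 locus that carried the HygroTK marker in all cells, which were under hygromycin. The part of this selection in its level was not tested. Nanog, which like Tead4 lies on chromosome 6, and Klf5 rose by 1.09 and 0.60, and the DNA methyltransferase gene Dnmt3a fell by 0.94 (limma adjusted p = 0.001, 0.017 and 0.036). Gata2 and Peg10, which fell, also lie on chromosome 6. Neither these genes nor Nanog and Slc2a3 were among the 30 neighbours of Tead4, and their distances from it were not compared. Klf5 is itself active in both trophectoderm and inner cell mass, so its rise cannot be read as that of a repressor of trophectoderm genes. Klf5 lost its call without any knockout array, and Dnmt3a without wild-type replicate 1 or any knockout array. Without wild-type replicate 3 Dnmt3a differed by -0.74. Sox2 differed by 0.30 (limma adjusted p = 0.316).

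**Figure D5:**
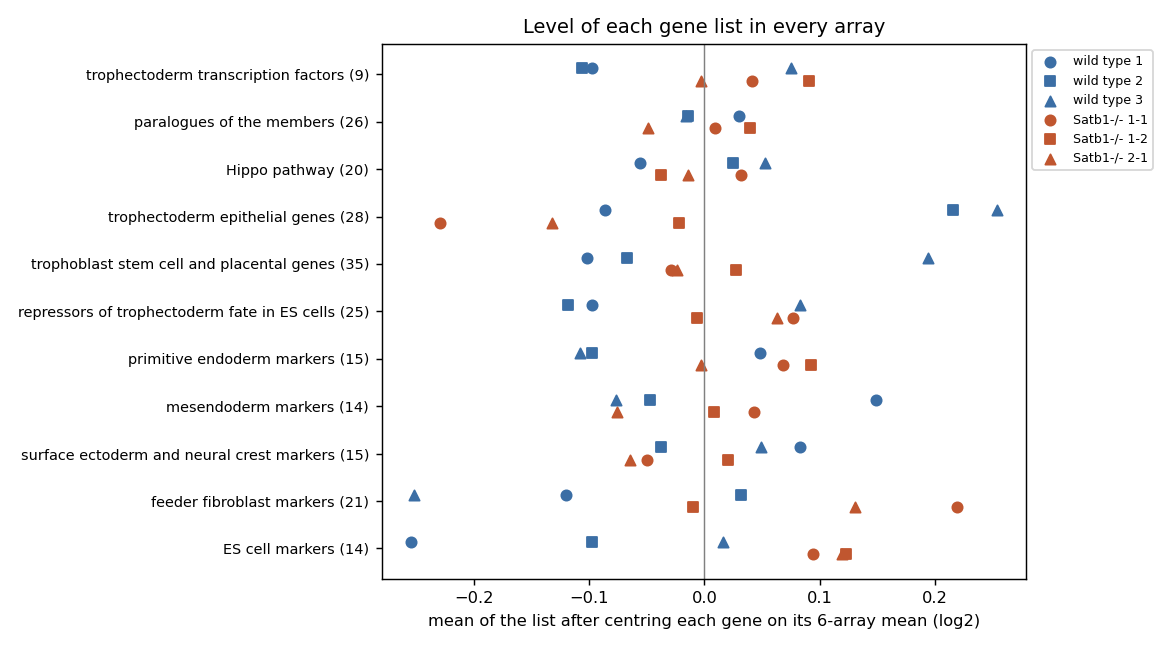
Mean log2 level of each gene list in every array after each gene was centred on its mean over the 6 arrays, with the number of measured genes in brackets (wild type in blue, Satb1-/- in orange, a symbol for each replicate). The trophectoderm factors lie between -0.11 and 0.09 in all arrays with the groups overlapping, and wild-type replicate 3 has the highest value in the lists of epithelial, placental and Hippo pathway genes and of repressors of trophectoderm fate.

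Other cells in the dish were checked by their markers. Of 21 feeder fibroblast markers, 0 passed the test (1.4% of all genes did), 19 had a higher mean in knockout and the median was 0.19. Their summed linear signal ranged from 2721 to 3716 in wild type and from 3560 to 3921 in knockout, and 11 of the 21 were lowest in wild-type replicate 3. The largest differences were those of Thy1 (0.62) and Postn (0.61), with limma adjusted p-values of 0.262 and 0.405, and Col1a1 differed by 0.12. Without wild-type replicate 3 Thy1 differed by 0.39 and Postn by 0.30. Of 15 primitive endoderm markers, 2 rose (0.923% of all genes did), the laminin gene Lama1 (1.53) and Sparc (0.63). Their limma adjusted p-values were 0.002 and 0.028, and the list median was -0.02. Sparc lost its call without wild-type replicate 1 or 2 or any knockout array. The regulator Gata6 differed by 0.05 (95% interval -0.29 to 0.38). The part of these cells in the values of Eomes, Tead4 and Tfap2c was not tested.

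The listed genes whose pattern over the 6 arrays was most like that of the 3 separated factors were found by the root mean square difference of centred log2 values, among the 137 other listed genes whose SD over the arrays was at least that of the median gene. For Eomes they were Tead4 (0.09) and Aqp3 (0.10). For Tead4 they were Frmd6, a Hippo pathway gene (0.05), and Tet2, which oxidises methylated cytosine (0.08). For Tfap2c they were Sox2 (0.04) and again Frmd6 (0.06). Frmd6 read 6.52, 6.71 and 6.53 in wild type and 6.94, 7.12 and 6.99 in knockout (0.43, limma adjusted p = 0.099). The 6 arrays share their 2 groups, so genes with a similar group difference are close by this measure.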

How the data were processed

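Each array's deposited file column holds log2 values by probe set, which the authors computed with RMA, per the submitters' processing notes. RMA corrects background, normalizes between arrays and summarises probes, and the sources used here give neither its version nor its settings. Of 35557 probe sets, 21789 had exactly 1 gene symbol in the platform annotation, 1621 several and 12147 none. Where a gene had several probe sets the brightest on average was kept, which gave 19938 genes. Groups were compared with limma 3.58.1 in R 4.3.3 (functions lmFit and eBayes, with neither covariates nor a filter), tested on simulated data, and called at a Benjamini-Hochberg adjusted p under 0.05. "Rose" and "fell" are used for called genes. A difference is knockout minus wild type. Neighbours were ordered by the RefSeq genes of GRCm38.p6, matched by Entrez ID for 19856 genes, as order only, since the array's build is not given. A summed linear signal is the sum of 2 to the power of the log2 values. Arrays have no read depth, and their number limits the precision. The 9 members, the 10 other gene lists and the tests were chosen with earlier results of these data known. The text names all 9 factors, up to 4 called genes of each list (or the 2 with the largest difference), a fixed set of related genes and the genes of most similar pattern, except where it says otherwise. Outside this rule it also names the relatives Cdx1, Cdx4, Tbr1, Tbx21 and Hand2. The chromosome neighbours Tspan9 and Tulp3 were named for their place next to Tead4, and Prp2 and Itga9 for their calls.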

Additional observations from a re-analysis of the deposited data

How the results depend on the processing

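No paired analysis was possible because the groups share no replicate number. The count of factors called higher was 0 in the main comparison and in every alternative except array weights and a second quantile normalization, where it was 1 (Eomes). The count called lower was 0 in all of them. The median difference of the factors (0.07) was 0.33 over the 3 above the median gene, 0.00 with dim values set to a floor and -0.14 after the median of chromosome neighbours was subtracted, and 0.0072 to 0.12 leaving out 1 array. Tead4 alone among the factors changed sign on subtracting neighbours (-0.41). Gata3 changed sign only without wild-type replicate 3 (-0.37 to 0.12 leaving out 1 array). Values near 0 changed sign for Tead1 (-0.057 to 0.093 leaving out 1 array, 0.028 with each array centred), Tead2 (-0.21 to 0.0010), Fgfr2 (-0.021 to 0.14) and Gata6 (-0.050 to 0.19, and -0.025 with knockout 1-1 and 1-2 averaged). The cause was not tested. Over all genes, 184 were higher and 95 lower, against 74 to 356 and 19 to 124 leaving out 1 array, 373 and 235 with array weights, 242 and 183 after a second quantile normalization, 159 and 47 with each array centred, 90 and 27 with knockout 1-1 and 1-2 averaged, 54 and 10 over all probe sets, 12 and 1 with the floor, and 4 and 0 without variance moderation. Of the 24 called genes named in the text, 4 stayed called over all probe sets, 10 with knockout 1-1 and 1-2 averaged, 19 with each array centred, 1 with the floor and 1 without variance moderation (Tulp3 in both), and 9 to 23 leaving out 1 array. Cdx2, Elf5, Tfap2a and Esx1 lay at the floor in all arrays and gave no difference there.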
